A study of Mus musculus with 16 samples.

Results

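The respiratory chain genes were followed through 4 groups of mouse mammary tumor cells. Members were the protein-coding genes whose symbols begin with Nduf, Uqcr, Cox4 to Cox8 or Atp5, the genes Sdha to Sdhd, and the mitochondrially encoded mt-Nd, mt-Co, mt-Atp and mt-Cytb genes. The rule found 106 of the 33072 genes of the table, 93 encoded in the nucleus and 13 in the mitochondrial genome. They held 36 nuclear and 7 mitochondrial subunits of complex I, 8 assembly factors of complex I, 4 subunits of complex II, 8 nuclear and 1 mitochondrial subunit of complex III, 19 and 3 of complex IV, and 16 and 2 of complex V. The remaining members were Cox7a2l, a factor that joins complexes III and IV into supercomplexes, and Atp5s, which is not counted among the subunits. Ndufa4 and Ndufa4l2 were placed with complex IV, to which Ndufa4 belongs despite its name.

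Cells of the metastatic line 4T1 and the non-metastatic line 67NR were treated for 24 h with the vehicle DMSO or with 15 µM CIX, an inhibitor of the cytosolic phospholipase A2 cPLA2α, so that each of the 4 groups held 4 biological replicates. Both are established lines from 1 spontaneous mammary tumor of a BALB/c mouse, so each line stands for itself, and any difference between them is between 2 cell lines and not between tumors. The epithelial genes Krt8, Krt18, Epcam and Cdh1 were expressed in 4T1 cells, with 443 CPM (counts scaled to a common library size with TMM) or more for Krt8, whereas the highest of these genes in a 67NR sample was Krt8 at 2.30 CPM. Of 6 mesenchymal genes, 4 were higher in every 67NR sample than in any 4T1 sample. Cdh2 lay between 141 and 195 CPM in 67NR samples and at most at 0.0682 CPM in 4T1 samples, Zeb1 between 50.7 and 74.3 CPM and at most at 0.792 CPM, Col1a2 between 3.75 and 7.23 CPM and at most at 2.01 CPM, and Vim between 4506 and 8348 CPM and between 1021 and 2831 CPM. The ranges of Fn1, at 1161 CPM or more in every sample, and of Col1a1, at most at 4.61 CPM, overlapped. With CIX Vim went from 1021 to 1170 CPM up to 2446 to 2831 CPM in 4T1 and from 4506 to 5431 CPM up to 7283 to 8348 CPM in 67NR cells. The epithelial genes did not move together with CIX in 4T1 cells. Krt18 went from 1015 to 1111 CPM up to 1172 to 1230 CPM and Krt19 from 58.3 to 86.6 CPM up to 99.3 to 132 CPM, Krt14 lay between 0.390 and 0.658 CPM and then between 1.31 and 4.54 CPM, Epcam went from 311 to 318 CPM down to 175 to 203 CPM, and the ranges of Krt8 and Cdh1 overlapped. Cd68, a lysosomal protein not limited to macrophages, went from 51.3 to 87.6 CPM up to 132 to 198 CPM in 4T1 and from 7.57 to 11.8 CPM up to 34.5 to 40.3 CPM in 67NR cells. The part of these marker shifts in the comparisons with CIX was not tested. The other leukocyte, endothelial and adipocyte genes stayed low, the highest being Pecam1 at 2.27 CPM, Ptprc at 1.42 CPM, Cdh5 at 1.20 CPM and Plin1 at 1.19 CPM. The total estimated count ranged from 21715700 to 29450629 per sample. In such bulk RNA, fewer cells of a type and less RNA per cell cannot be told apart.

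Complexes I to IV pass electrons from NADH and succinate to oxygen, and all but complex II pump protons while they do so. Complex V, the ATP synthase, uses the resulting gradient to make ATP. The mitochondrial genome supplies a few core subunits, transcribed as long precursors from its own promoters, while the nucleus encodes the other subunits, all of complex II and the assembly factors, so that the complexes need the products of both genomes. In many cell types nuclear genes of the chain are regulated by factors such as NRF1, GABP and YY1 and by PGC-1 coactivators.

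Some libraries stood apart in these genes. Sample 10, a CIX-treated 67NR sample, gave 0.377% of its counts to the 13 mitochondrial genes, against 1.14 to 1.43% in the other 3 samples of its group. Sample 13, a vehicle-treated 67NR sample, held the highest level of its group for several nuclear members, among them Ndufab1 and Cox6b1. Sample 3, a vehicle-treated 4T1 sample, was likewise the highest of its group for several members, among them Atp5j2. Without sample 13 the log2 fold change between the untreated lines was -2.40 for Ndufab1, beside -2.62 with all samples, and -0.78 for Cox6b1, beside -0.90. Without sample 3 the log2 fold change of Atp5j2 with CIX in 4T1 cells was 1.14, beside 0.87.

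Compared per length, as CPM per kb of transcript, the most abundant members in untreated 67NR cells were mitochondrial genes and Atp5b, the catalytic β subunit of complex V. The mean level was 3013 CPM per kb for mt-Co2, 2863 for mt-Co1, both core subunits of complex IV, 2194 for mt-Cytb, the cytochrome b of complex III, and 2161 for Atp5b. The length used for Atp5b, 875 bases, is a mean over its annotated transcripts. Its place therefore depends on which of these are expressed, which was not tested. Among the nuclear subunits of complex IV, Cox8a held 588 CPM per kb, Cox6b1 541 and Cox4i1 526. Libraries were made from poly-A selected mRNA, so levels of mitochondrial transcripts also depend on how well their short tails were captured, which was not measured.

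The untreated lines differed widely in these genes. Untreated 4T1 cells had lower levels than untreated 67NR cells in 37 of 99 tested members and higher levels in 11, at an adjusted p below 0.001 (limma, adjusted after Benjamini and Hochberg), the threshold used for calls unless another is named. Over all 11040 genes tested, 19.6% were lower and 20.4% were higher. The median log2 fold change of the members was -0.42, and that of all genes was -0.010. At 0.05, 53 members were lower and 18 higher, beside 34.1% and 33.3% of all genes, and 61 of these 71 passed at 0.05 in all 8 fits that left out 1 sample.

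In complex III the core proteins that form its matrix-facing part differed in opposite directions between the lines. Uqcrc2, core protein 2, was read at 181, 176, 176 and 176 CPM in untreated 67NR samples and at 30.8, 21.9, 27.3 and 28.6 CPM in untreated 4T1 samples. The 4T1 level was thus 15.3% of that in 67NR cells, with a log2 fold change of -2.73 ± 0.11 (SE) and an adjusted p of 1.35e-07 (limma). Its partner Uqcrc1, core protein 1, was higher in 4T1 cells, with 170.4, 177, 167 and 155 CPM against 72.2, 71.4, 76.0 and 65.0 CPM in 67NR cells. Here the log2 fold change was 1.22 ± 0.07 and the adjusted p 1.16e-06 (limma). For neither gene did the groups overlap. Uqcr10, a small subunit of the complex, was lower in 4T1 cells (-1.86 ± 0.19), and Uqcrfs1, the Rieske iron-sulfur protein, was higher (0.87 ± 0.07). Of the 8 nuclear subunits of complex III, 4 were lower and 2 were higher.

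Members of complex I differed in both directions too. Of its 36 nuclear subunits, 15 were lower and 6 higher in untreated 4T1 cells, with a median log2 fold change of -0.44. Ndufab1, the mitochondrial acyl carrier protein, was lowest by this measure at -2.62 ± 0.31, with 16.8, 15.0, 21.0 and 13.7 CPM in 4T1 and 74.2, 96.3, 82.2 and 173 CPM in 67NR samples. Ndufc2, an accessory subunit of the membrane arm, followed at -2.09 ± 0.21. Neither gene overlapped between the lines. The highest subunits were Ndufb9, also of the membrane arm, at 1.00 ± 0.09, and Ndufs1, the largest of the subunits that carry iron-sulfur clusters, at 0.92 ± 0.09. All 4 of these passed at 0.001. Among the 8 assembly factors 3 were lower and none was higher, with Ndufaf4 at -2.00 ± 0.19 and Ndufaf3 at -1.40 ± 0.18. At the upper end Ndufaf7 had a value of 0.30 that did not pass (adjusted p 0.0871, limma).

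Fewer members of the other complexes were called. Of all genes tested 19.6% were lower and 20.4% higher, and the counts in complexes IV and V did not exceed these shares. Complex II, which is also succinate dehydrogenase of the citric acid cycle, had 1 higher subunit, the membrane anchor Sdhd at 0.70 ± 0.08, and none lower. Sdha, its flavoprotein, had a value of 0.67 ± 0.25 that passed only at 0.05, in 4 of the 8 fits that left out 1 sample, and the groups overlapped. In complex IV 1 of 12 tested nuclear subunits was lower, Cox7c at -1.19 ± 0.17, and 1 was higher, Cox4i1 at 0.56 ± 0.08. The call of Cox4i1 was lost when any 1 of the 4 67NR samples was left out, and that of Cox7c without 4T1 sample 7, 11 or 15. Cox6b1 had -0.90 ± 0.21 and passed only at 0.05. In complex V, Atp5d, the δ subunit of the central stalk, had the lowest value at -1.29 ± 0.13, and Atp5c1, the γ subunit of the same stalk, the highest at 0.74 ± 0.07, both past 0.001. Of the 16 subunits of complex V, 3 were lower and 1 was higher. The supercomplex factor Cox7a2l was lower in 4T1 cells (-1.11 ± 0.13, adjusted p 6.80e-05, limma).

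**Figure D1:**
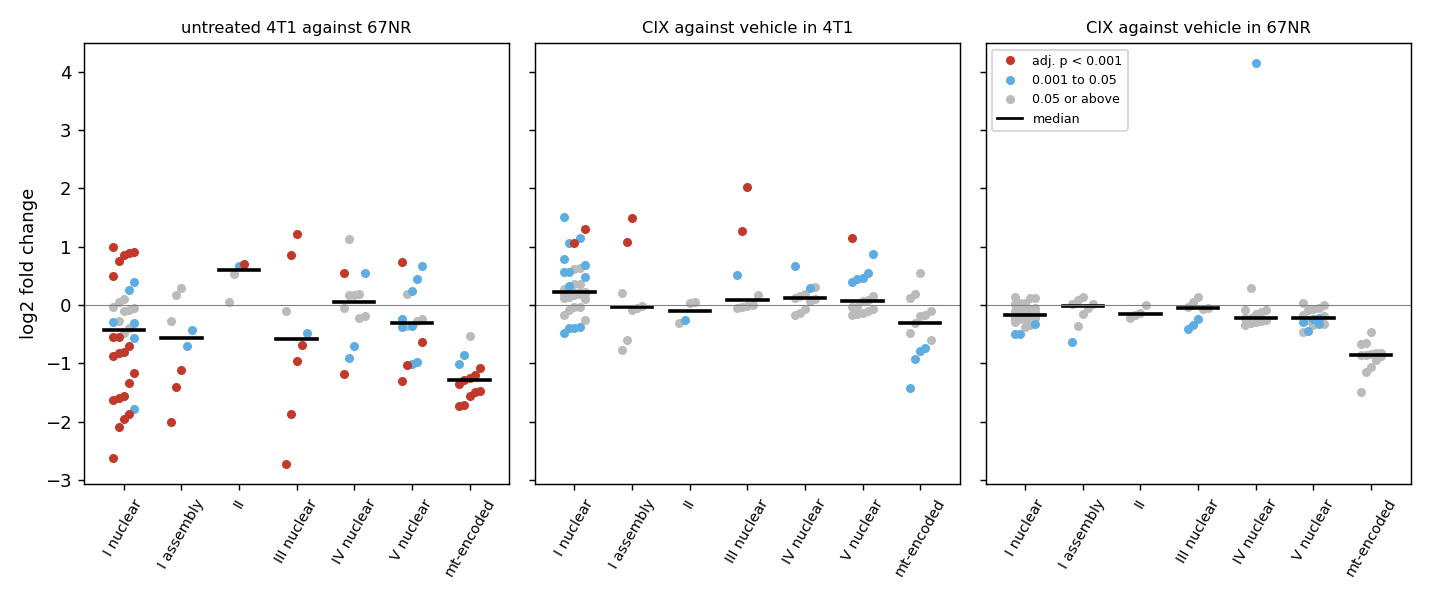
Log2 fold change of each tested member in 3 comparisons (y axis) by complex and genome (x axis), with 1 point per gene, colored by adjusted p, and a black line at the median of each class. The mitochondrial genes lie below 0 in untreated 4T1 against 67NR cells, with a median of -1.28, and the nuclear subunits with the highest fold changes under CIX in 4T1 cells are those of complexes I, III and V.

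CIX raised 8 of 98 tested members in 4T1 cells and lowered none at 0.001, where 5.35% of all 11659 genes tested rose and 3.99% fell. The median log2 fold change of the members was 0.13, beside -0.0069 for all genes. At 0.05, 25 members rose and 9 fell, beside 21.9% and 20.8% of all genes. The members past 0.001 were Uqcrc2 and Uqcr10 of complex III, Ndufab1 and Ndufs4 of complex I, Atp5d of complex V, the complex I assembly factors Ndufaf3 and Ndufaf5, and Cox7a2l. Between the untreated lines these members had log2 fold changes of -2.73 (Uqcrc2), -1.86 (Uqcr10), -2.62 (Ndufab1), -1.16 (Ndufs4), -1.29 (Atp5d), -1.40 (Ndufaf3), -1.11 (Ndufaf5) and -1.11 (Cox7a2l). That comparison shares the 4 vehicle-treated 4T1 samples with the present one, so the values are set side by side and nothing is drawn from their signs.

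Uqcrc2 had the highest fold change of the members. Its level was 30.8, 21.9, 27.3 and 28.6 CPM with vehicle and 122, 100.4, 94.8 and 132 CPM with CIX, with no overlap. The log2 fold change was 2.02 ± 0.15 (SE) with an adjusted p of 4.55e-05 (limma), and the mean level after CIX was 63.3% of that in untreated 67NR cells. Of the sequence words of 31 bases in Uqcrc2, 18.5% also occur in the protein-coding gene Pdzd9. How reads were divided between these genes was not tested. Uqcr10 was read at 64.2, 31.9, 36.0 and 37.8 CPM with vehicle, where sample 3 was the highest, and at 113, 90.5, 95.6 and 102 CPM with CIX. It had a log2 fold change of 1.27 ± 0.20 and an adjusted p of 0.000965 (limma). The other subunits of complex III did not pass at 0.001, and Uqcrb passed at 0.05 with 0.52. Uqcrc1 and Uqcrfs1, higher in untreated 4T1 cells, had values of 0.18 and -0.01 that did not pass at either threshold.

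In complex I, Ndufab1 lay at 16.8, 15.0, 21.0 and 13.7 CPM with vehicle and at 51.4, 34.6, 39.9 and 40.1 CPM with CIX (1.31 ± 0.17, adjusted p 0.000431, limma). It remained below the 67NR samples, at 39.0% of their untreated mean. Ndufs4, an accessory subunit of the matrix arm, lay at 28.2, 21.2, 19.8 and 22.5 CPM and at 46.7, 46.5, 48.1 and 51.9 CPM (1.07 ± 0.13, adjusted p 0.000277, limma), which was 95.4% of the untreated 67NR mean. The groups did not overlap for either gene. Ndufc2 had a larger fold change but also a larger error, 1.51 ± 0.27, from 13.3, 5.64, 8.13 and 8.23 CPM with vehicle and 34.8, 24.2, 19.1 and 22.4 CPM with CIX, and passed only at 0.05 (adjusted p 0.00207, limma). Of the 36 nuclear subunits 11 rose and 4 fell at 0.05, and their median was 0.22. Ndufa3 (1.15), Ndufa5 (1.07) and the iron-sulfur subunits Ndufv2 (0.79) and Ndufs7 (0.57) were among those that rose.

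The nuclear subunits of complex I that fell included core components. Ndufs1 lay at 178, 184, 192 and 154 CPM with vehicle and at 121, 129, 119 and 142 CPM with CIX, without overlap (-0.48 ± 0.10, adjusted p 0.00438, limma). Ndufs3 (-0.39), a core subunit near the quinone site, Ndufa11 (-0.39), of the membrane arm, and Ndufv3 (-0.38), a small subunit beside the NADH site, also passed at 0.05. Between the untreated lines, which share samples with this comparison, Ndufs1 had 0.92, Ndufs3 0.85, Ndufv3 0.89 and Ndufa11 -0.05, of which that of Ndufa11 did not pass.

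Among the assembly factors, Ndufaf3 lay at 4.06, 5.55, 6.81 and 4.41 CPM with vehicle and at 18.1, 13.2, 14.9 and 12.8 CPM with CIX (1.50 ± 0.20). Ndufaf5, which modifies the subunit Ndufs7 during assembly, lay at 5.60, 7.04, 7.08 and 7.06 CPM and at 12.1, 14.4, 15.3 and 15.8 CPM (1.09 ± 0.15). Both passed at 0.001 without overlap between the groups. Ndufaf1 and Ndufaf4 had values of -0.78 and -0.60 that did not pass, and sample 11 held the highest vehicle level of Ndufaf1.

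In complex V, Atp5d lay at 144, 92.7, 106 and 106 CPM with vehicle and at 284, 242, 250.2 and 227 CPM with CIX (1.16 ± 0.14, adjusted p 0.000307, limma), which brought it to 93.0% of the untreated 67NR mean. Atp5j2, a subunit of the membrane part, had 0.87 ± 0.26, passed at 0.05 and overlapped between the groups, since its vehicle level in sample 3 was 92.6 CPM and that in the other 3 samples 39.9 to 46.7 CPM. Both subunits of the catalytic hexamer, Atp5a1 (0.45) and Atp5b (0.39), rose at 0.05, as did 6 of the 16 subunits in all, and none fell. In complex IV, Cox7c (0.66) and Cox8a (0.30) of 11 tested nuclear subunits rose at 0.05 and none fell. Cox5b was lowest at -0.17 and did not pass. In complex II, Sdhd fell at 0.05 (-0.25), and Sdha had -0.30 and did not pass. Cox7a2l lay at 166, 124, 121 and 141 CPM with vehicle and at 266, 273, 255 and 271 CPM with CIX (0.94 ± 0.11, adjusted p 0.000265, limma).

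The number past 0.001 varied with the samples used. When 1 of the 8 samples was left out, 1 member was called without 4T1 vehicle sample 7 or 15 or 4T1 CIX sample 8, 2 without CIX sample 16, 3 without CIX sample 12, 5 without vehicle sample 11, 6 without vehicle sample 3 and 8 without CIX sample 4. Over all genes tested, 9.34% were called with all 8 samples. In the same fits this share was 2.44% without sample 7, 3.48% without 15, 2.97% without 8, 3.46% without 16, 4.53% without 12, 5.02% without 11, 6.12% without 3 and 8.84% without 4, so calls became fewer over all genes too. Uqcrc2 was called in each of these 8 fits, and all 8 members passed at 0.05 in each. Of the 34 members past 0.05, 24 passed in all 8 fits. The others passed in 6 fits (Ndufa11, Atp5g2, mt-Nd3), 5 (Atp5j2), 4 (Cox8a, Uqcrb), 3 (Ndufv3, mt-Cytb), 2 (Sdhd) or 1 (Ndufb8). The call was lost in 7 of the 8 fits for Uqcr10 and Ndufaf5, in 6 for Ndufab1 and Ndufaf3, in 5 for Atp5d and in 4 for Ndufs4 and Cox7a2l. Uqcr10 also lost it under edgeR, with DESeq2 size factors, without scaling and in both fits of log2(TPM). DESeq2 called 18 members, 17 of them higher, where it called 14.0% of all genes higher and 12.6% lower.

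**Figure D2:**
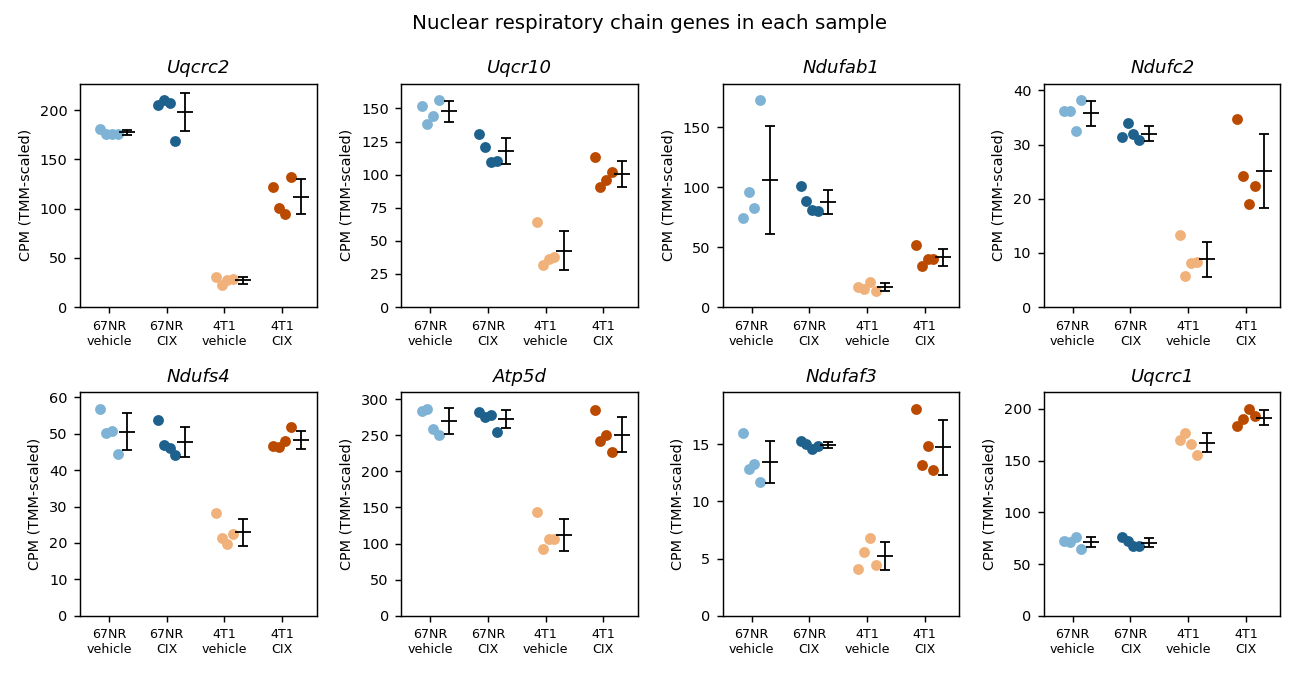
Level of 8 nuclear members (y axis, CPM scaled by TMM) in the 4 groups (x axis), with 1 point per sample and the mean with its SD beside the points. Uqcrc2 lies between 21.9 and 30.8 CPM in vehicle-treated 4T1 samples and between 94.8 and 132 CPM after CIX, and Uqcrc1 is higher in 4T1 than in 67NR samples.

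Promoters of 74 of the 93 nuclear members were found in the RefSeq table of GRCm38.p6, from 250 bases before to 50 bases after the start. They were searched on both strands for GCGCATGC, the core of the NRF1 motif, CCGGAAGT, an ETS core that GABP binds, AAGATGGC, a YY1 core, and CACGTG, an E-box. The NRF1 core was found in 16.2% of the members' promoters and in 2.80% of all 27025 promoters. The YY1 core was found in 12.2% and 2.88%, the ETS core in 6.76% and 4.00%, and the E-box in 6.76% and 7.24%. Of the 22 members with a promoter that rose with CIX in 4T1 cells at 0.05, 5 held the YY1 core, 2 the NRF1 core, 1 the ETS core and 1 the E-box. Of the 7 with a promoter that rose at 0.001, 1 held the NRF1 core, 1 the YY1 core and none either other motif. Uqcrc2, Uqcrb and Atp5a1 were not among the promoters used here.

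These promoters of members that rose show what the matches look like, beside members without any. They are given from 100 bases before the start on, with 30 bases from the start on, 5′ to 3′ on the strand of the gene, and the matched letters are in capitals. Ndufaf5 (chr2:140170546-140170675, plus strand) and Atp5g2 (chr15:102671018-102671147, minus strand), a gene for the ring subunit c of complex V, hold the NRF1 core on both strands, where the matches overlap to a palindrome of 10 bases. Ndufa3 (chr7:3617273-3617402, plus strand) holds the YY1 core just past the start, and Cox8a (chr19:7217587-7217716, minus strand) the ETS core on the opposite strand. Uqcr10 (chr11:4704315-4704444, minus strand) and Ndufab1 (chr7:122101819-122101948, minus strand) had larger fold changes than Atp5g2 (0.46) and Cox8a, and hold none of the 4 motifs. A match is a description of the letters and no evidence of binding.
Ndufaf5: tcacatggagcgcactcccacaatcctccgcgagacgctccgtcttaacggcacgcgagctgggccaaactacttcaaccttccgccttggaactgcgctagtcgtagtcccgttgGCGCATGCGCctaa
Atp5g2: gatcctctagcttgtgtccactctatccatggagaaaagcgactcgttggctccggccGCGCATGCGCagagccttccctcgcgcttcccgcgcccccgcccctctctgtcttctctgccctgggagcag
Ndufa3: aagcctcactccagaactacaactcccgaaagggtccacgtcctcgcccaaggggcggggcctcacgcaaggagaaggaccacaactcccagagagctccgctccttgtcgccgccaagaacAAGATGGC
Cox8a: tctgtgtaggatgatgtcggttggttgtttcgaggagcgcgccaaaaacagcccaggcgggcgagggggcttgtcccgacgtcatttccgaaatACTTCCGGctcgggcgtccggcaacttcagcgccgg
Uqcr10: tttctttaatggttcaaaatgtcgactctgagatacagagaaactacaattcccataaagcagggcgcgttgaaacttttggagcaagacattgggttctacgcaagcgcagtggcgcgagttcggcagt
Ndufab1: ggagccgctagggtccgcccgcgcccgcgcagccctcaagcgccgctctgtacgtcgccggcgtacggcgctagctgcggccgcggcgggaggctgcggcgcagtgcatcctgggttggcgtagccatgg

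In 67NR cells no member of 100 tested passed at 0.001, where 0.182% of all 11560 genes tested rose and 0.208% fell. At 0.05, 12 members fell, beside 9.26% of all genes. The other member past 0.05, beside 8.51% of all genes that rose, was Cox6a2, whose high value the filter on low values selected, so that it is no result of the test. The median log2 fold change was -0.19 over the members and -0.0063 over all genes. At an unadjusted p below 0.05 (limma), 40 members were lower and Cox6a2 was higher, beside 16.9% and 16.0% of all genes. At 0.001 edgeR called 0 members, and DESeq2 called Cox6a2 and, as lower, Ndufa1, Ndufb7 and Ndufaf2, where it called 4.36% of all genes higher and 4.64% lower.

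The members that fell at 0.05 in 67NR cells belonged to complexes I, III and V. In complex I they were Ndufa1 (-0.50 ± 0.11) and Ndufb7 (-0.49 ± 0.10) of the membrane arm, Ndufv3 (-0.32) and the assembly factor Ndufaf2 (-0.62 ± 0.12). Ndufa10 and Ndufa6 had the highest values among the subunits of complex I, 0.14 and 0.12, and did not pass. In complex III, Uqcr11 (-0.40), Uqcr10 (-0.35) and Uqcrb (-0.25) fell. Uqcr10 lay at 152, 139, 144 and 156 CPM with vehicle and at 130.3, 121, 109.7 and 110.0 CPM with CIX, whereas Uqcrc2, at 181, 176, 176 and 176 CPM with vehicle and 206, 210.1, 207 and 169 CPM with CIX, had a value of 0.13 and did not pass. In complex V 5 subunits fell, with Atp5j, coupling factor 6, at -0.44. Atp5k had -0.47 and did not pass (adjusted p 0.148, limma). No subunit of complex II passed. Most of these calls were lost when 1 of the 8 samples was left out. Ndufa1, Ndufb7 and Ndufaf2 passed at 0.05 in all 8 fits, Uqcr10 in 5, Uqcr11 and Atp5j2 in 4, Uqcrb in 2, and Ndufv3, Atp5j, Atp5e, Atp5mpl and Atp5h in 1.

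The member that was higher at 0.05 in 67NR cells was Cox6a2, the isoform of subunit 6a of complex IV that is known from heart and skeletal muscle. Its level was 0.911, 0.275, 0.825 and 0.206 CPM with vehicle and 6.25, 8.33, 12.3 and 9.72 CPM with CIX, without overlap. The log2 fold change was 4.15. Cox6a2 passed the filter on low values in 67NR cells through its high level in the CIX-treated samples, so the filter favored a difference. Its values are given as a description with no test. In 4T1 cells the filter left it out, with 0.0386, 0, 0 and 0 CPM with vehicle and 0.262, 0.156, 0.135 and 0.372 CPM with CIX. Per length, Cox6a2 held 0.261% of the transcripts of subunit 6a in untreated 67NR cells and 4.50% after CIX, and the remainder was Cox6a1, the isoform found in most tissues. Of the 3 muscle genes looked at, Acta1 and Ckm stayed at or below 0.508 CPM in all 16 samples, and Myh1 lay between 0.659 and 0.920 CPM in vehicle-treated and between 0.435 and 1.71 CPM in CIX-treated 67NR samples.

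**Figure D3:**
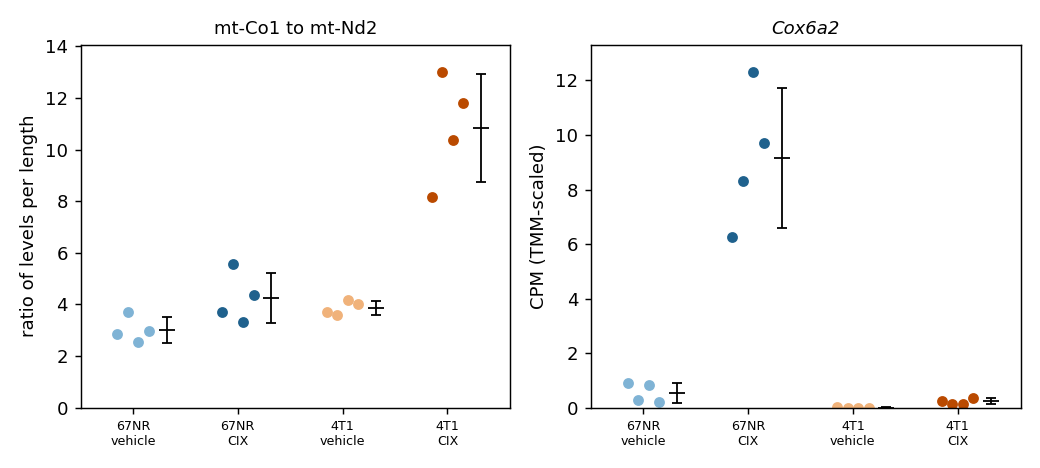
Left, ratio of the levels per length of mt-Co1 and mt-Nd2, and right, level of Cox6a2 (CPM scaled by TMM), both by group on the x axis with 1 point per sample and the mean with its SD. The ratio is 8.18 or higher in CIX-treated 4T1 samples and at most 5.57 in the other groups, and Cox6a2 lies between 6.25 and 12.3 CPM in CIX-treated 67NR samples and at most at 0.911 CPM in the others.

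The difference between the lines in their response to CIX was tested with an interaction term over all 16 samples. In 11 of 100 tested members the response was higher in 4T1 than in 67NR cells at 0.001 and in none it was lower, beside 4.81% and 3.05% of all 12605 genes tested. At 0.05 it was higher in 32 members and lower in none, beside 15.1% and 14.2% of all genes. At an unadjusted p below 0.05 it was higher in 41 members and lower in 2, Ndufaf4 and Ndufs1, beside 19.5% and 19.7% of all genes. The median interaction term was 0.35 on the log2 scale over the members and -0.019 over all genes. The term uses the same vehicle samples as the other comparisons, so it restates their difference and does not stand apart from them.

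Uqcrc2 had the largest term at 1.89 ± 0.17 (adjusted p 4.19e-06, limma), followed by Ndufc2 at 1.69 ± 0.27 and Uqcr10 at 1.62 ± 0.21. Both members of complex III rose with CIX in 4T1 cells, whereas in 67NR cells Uqcrc2 had 0.13 and did not pass and Uqcr10 fell at 0.05 with -0.35. In complex I, Ndufa5 (1.45 ± 0.25), Ndufs4 (1.16 ± 0.15), Ndufs5 (0.98 ± 0.18), Ndufv2 (0.86 ± 0.14) and Ndufs7 (0.62 ± 0.10) also passed at 0.001, as did the assembly factors Ndufaf3 (1.36 ± 0.22) and Ndufaf5 (1.06 ± 0.17). Atp5d was the member of complex V that passed (1.16 ± 0.15), with 1.16 in 4T1 and 0.00 in 67NR cells. Ndufab1 had 1.52 ± 0.33 and passed only at 0.05 (adjusted p 0.00275, limma), and its vehicle level in 67NR was 173 CPM in sample 13 and 74.2 to 96.3 CPM in the other samples. Without sample 13 its term was 1.26 and passed at 0.001. Cox7a2l (0.71) passed at 0.05 as well. The smallest terms past 0.05 were those of Cox6c (0.36), Ndufa4 (0.41) and Atp5a1 (0.41). Of the 32 members past 0.05, 26 passed in all 16 fits that left out 1 sample, Atp5g2 in 15, Atp5a1 in 14, Ndufb8 in 9, Cox6c and Ndufaf2 in 4 and Ndufa4 in 3.

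By complex, the median term was 0.38 for the 36 nuclear subunits of complex I, of which 15 were higher at 0.05. At that threshold 3 of 8 nuclear subunits of complex III, 4 of 13 of complex IV, 6 of 16 of complex V and none of 4 of complex II were higher. When 1 sample was left out, between 5 and 20 members passed at 0.001, where between 5.14% and 8.38% of all genes did, beside 7.86% with all samples. The number was 20 without 4T1 vehicle sample 3 (8.26% of all genes), 5 without 4T1 vehicle sample 15 (5.87%), 6 without 67NR vehicle sample 1 (5.22%), and 7 without 4T1 vehicle sample 7 or without 67NR CIX sample 10 or 14 (5.14%, 5.57% and 5.46%). Uqcrc2, Uqcr10, Ndufs4 and Atp5d passed in all 16 of these fits. The call of Ndufs5 was lost in 13 of them and under edgeR, with DESeq2 size factors, without scaling, without the filter, in both fits of log2(TPM) and without samples 10 and 13 together. Ndufa5 lost it in 7 fits, Ndufv2 and Ndufs7 in 6 each, Ndufaf5 in 3, and Ndufaf3 and Ndufc2 in 1 each. Ndufv2 and Ndufs7 also lost it in both fits of log2(TPM), and Ndufs7 without scaling. Without samples 10 and 13 together, where 4.87% of all genes passed, Ndufa5, Ndufc2, Ndufv2 and Ndufs7 lost it too. The median over the nuclear subunits stayed between 0.255 and 0.413.

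The mitochondrial genes were lower in untreated 4T1 cells as a group. The 13 genes took 1.76%, 1.34%, 1.72% and 1.71% of all counts in the untreated 67NR samples and 0.601%, 0.756%, 0.498% and 0.926% in the untreated 4T1 samples, means of 1.63% ± 0.198 (SD, n = 4) and 0.695% ± 0.187, with no overlap. Counts of the nuclear members differed far less, with 1.10% ± 0.0177 and 0.993% ± 0.0628. Of the 13 genes, 10 were lower at 0.001 and 12 at 0.05, beside 19.6% and 34.1% of all genes, and their median log2 fold change was -1.28, beside -0.010. When 1 of the 8 samples was left out, the call at 0.001 was lost in 6 fits for mt-Atp6 and mt-Nd4l, in 4 for mt-Cytb, in 2 for mt-Co1 and in 1, without 4T1 sample 3, for mt-Nd2 and mt-Nd4. In the common fit of all 16 samples mt-Nd1, mt-Nd4, mt-Nd4l, mt-Cytb and mt-Co1 lost it, with edgeR mt-Nd4l, with log2(TPM + 0.1) mt-Cytb, and with the length and GC correction mt-Atp6 and mt-Nd6. mt-Nd5 and mt-Co3 kept it in each of these fits. The values ran from -1.74 ± 0.19 for mt-Nd5 and -1.71 ± 0.18 for mt-Nd6, both in complex I, to -0.53 ± 0.40 for mt-Nd3, which did not pass. The remaining complex I genes had -1.56 (mt-Nd2), -1.48 (mt-Nd4), -1.47 (mt-Nd4l) and -1.08 (mt-Nd1). mt-Cytb had -1.36, the complex IV genes mt-Co3, mt-Co1 and mt-Co2 had -1.28, -1.19 and -1.01, and the complex V genes mt-Atp6 and mt-Atp8 had -1.25 and -0.86.

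**Figure D4:**
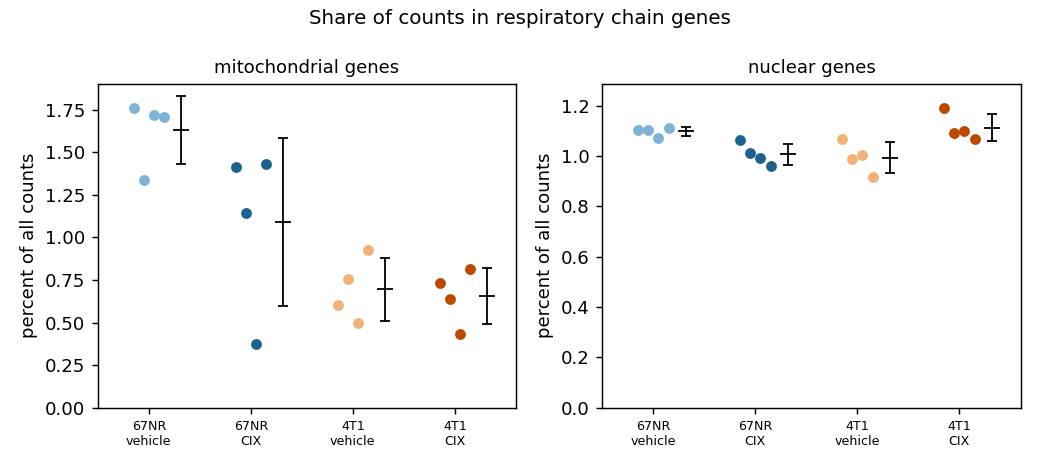
Percent of all counts (y axis) in the mitochondrial genes and in the nuclear members by group (x axis), with 1 point per sample and the mean with its SD. Untreated 4T1 samples lie between 0.498 and 0.926% for the mitochondrial genes, below the 1.34 to 1.76% of untreated 67NR samples.

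With CIX, 3 of the 7 mitochondrial genes of complex I and the gene of complex III fell at 0.05 in 4T1 cells, and none of the 3 of complex IV and 2 of complex V passed. mt-Nd2, a membrane subunit of complex I, lay at 302, 400.4, 237 and 457 CPM with vehicle and at 236, 155, 128 and 231 CPM with CIX (-0.92 ± 0.25, adjusted p 0.0158, limma). The highest CIX level lay just below the lowest vehicle level. mt-Nd1 (-0.80 ± 0.21), mt-Nd3 (-1.42 ± 0.39) and mt-Cytb (-0.74 ± 0.26) also fell at 0.05. None of the 13 passed at 0.001 with limma, while 5 were lower and 1 was higher at an unadjusted p below 0.05, where 25.3% of all genes were lower and 25.9% higher. With sample quality weights mt-Nd1 passed at 0.001 (-0.988), and without CIX-treated sample 4 mt-Nd3 did (-1.88). mt-Co1, at 1663, 2137, 1474 and 2734 CPM with vehicle and 2878, 2996, 1968 and 4049 CPM with CIX, had a value of 0.54 ± 0.24 that did not pass (adjusted p 0.0932, limma), and the groups overlapped. The other values were -0.48 for mt-Nd4, -0.59 for mt-Nd4l, -0.31 for mt-Nd5, -0.19 for mt-Nd6, 0.11 for mt-Co2, -0.10 for mt-Co3, -0.17 for mt-Atp6 and 0.20 for mt-Atp8, none of which passed.

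The summed share of the mitochondrial genes was 0.655% ± 0.163 (SD, n = 4) after CIX in 4T1 cells beside 0.695% ± 0.187 with vehicle, and the groups overlapped. The genes mt-Co1 and mt-Nd2, whose coding regions lie at chrM:5328-6872 and chrM:3914-4951 on the same strand of GRCm38, moved apart. Per length, the ratio of mt-Co1 to mt-Nd2 was 3.70, 3.59, 4.17 and 4.02 in vehicle-treated 4T1 samples and 8.18, 13.0, 10.3 and 11.8 in CIX-treated ones. In 67NR samples it was 2.85, 3.70, 2.54 and 2.96 with vehicle and 3.73, 5.57, 3.33 and 4.35 with CIX. The groups did not overlap in 4T1 cells and overlapped in 67NR cells. This ratio was chosen after the values had been seen and is a description with no test.

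**Figure D5:**
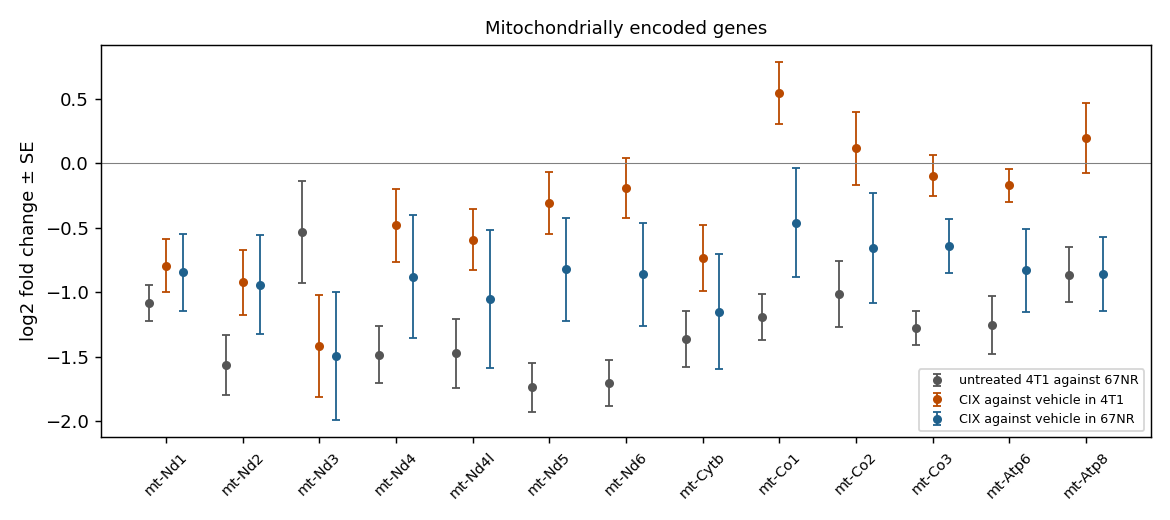
Log2 fold change with its SE (y axis) of each of the 13 mitochondrial genes (x axis) in the comparisons of the untreated lines and of CIX with vehicle in each line. In 4T1 cells the values run from -1.42 for mt-Nd3 to 0.54 for mt-Co1, and in 67NR cells all 13 lie below 0.

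In 67NR cells all 13 mitochondrial genes had values below 0 after CIX, with a median of -0.86, and none passed at 0.05 with limma, while 7 were lower at an unadjusted p below 0.05, beside 16.9% of all genes. They ran from -1.49 ± 0.49 for mt-Nd3 to -0.46 ± 0.42 for mt-Co1, with adjusted p-values of 0.0686 and 0.497 (limma), and the smallest adjusted p among the 13 was 0.0683, for mt-Co3 at -0.64. mt-Cytb (-1.15) lay at 2868, 1978, 2718 and 2478 CPM with vehicle and at 1954, 1301, 375 and 1715 CPM with CIX, where sample 10 was the lowest. The complex I genes had -0.84 (mt-Nd1), -0.94 (mt-Nd2), -0.88 (mt-Nd4), -1.05 (mt-Nd4l), -0.82 (mt-Nd5) and -0.86 (mt-Nd6). mt-Co2 had -0.66, mt-Atp6 -0.83 and mt-Atp8 -0.86. Without sample 10 the median was -0.47, and without samples 10 and 13 it was -0.41. The interaction term had a median of 0.51 over the 13 genes, which became 0.06 without sample 10, and it did not pass for any of them at 0.05.

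Many mitochondrial genes have near-identical copies in the nuclear genome, to which the estimation can assign their reads. mt-Co2, mt-Co3, mt-Atp6, mt-Nd4l and mt-Nd3 shared 98.1% or more of their words of 31 bases with annotated pseudogenes, mt-Co1 63.9% and mt-Nd1 0%. The pseudogene Gm28438 held a mean of 1749 counts where mt-Nd3 itself held 380, so the level of mt-Nd3 is uncertain. With the counts of such copies added, the mitochondrial share was 1.87% in untreated 67NR and 0.837% in untreated 4T1 cells. The mean ratio of mt-Co1 to mt-Nd2 was then 14.2 in CIX-treated and 5.17 in vehicle-treated 4T1 cells. mt-Nd1, which shares no such words, had -1.08 between the untreated lines and -0.80 with CIX in 4T1 cells.

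Subunits that exist as isoforms were read almost wholly from their common form. Cox4i1, Cox6a1, Cox6b1, Cox7a2, Cox7b, Cox8a and Ndufa4 each held 93.7% or more of the transcripts of their set, per length, in every sample. Cox8b and Cox8c, known from muscle and testis, had 0 counts in all samples, and Cox4i2 (at most 0.205 CPM), Cox6b2 (at most 0.0997 CPM) and Ndufa4l2 (at most 0.551 CPM) were left out of all tests by the filter. Cox7b2 (at most 0.578 CPM) was tested in 2 comparisons and Cox7a1 (at most 1.17 CPM), a muscle form, in 1, where its value of 1.13 between the untreated lines did not pass. The other 98 members passed the filter in all 4 comparisons, and Cox6a2 in 2. The 3 genes for the ring subunit c of complex V encode the same mature protein. Per length, Atp5g3 held 72.9% of this set in untreated 67NR and 79.4% in untreated 4T1 cells, Atp5g2 23.3% and 16.0%, and Atp5g1 3.86% and 4.61%. Atp5g2 was lower in untreated 4T1 cells at 0.001 (-1.02 ± 0.15), a call lost without 4T1 sample 7 or 15, and rose with CIX at 0.05 in 4T1 cells (0.46), whereas Atp5g1 (-0.16) and Atp5g3 (0.09) did not pass with CIX. More reads were assigned to pseudogenes of Atp5g2 than to Atp5g2 itself, with means of 3604 counts for Gm10175 and 605 for Gm10231 beside 1015 for Atp5g2, so these shares are uncertain. With the pseudogene reads added, Atp5g2 had 263 CPM in untreated 67NR and 135 CPM in untreated 4T1 cells, its log2 fold change with CIX in 4T1 cells was 0.64, and it passed at 0.001 (adjusted p 0.000862, limma).

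Genes of the same pathway outside the rule were counted on separate lists, to be read beside the 5.35% of all genes that rose and 3.99% that fell with CIX in 4T1 cells at 0.001 and the 21.9% and 20.8% at 0.05. Cyc1, the cytochrome c1 of complex III, lay at 72.9 ± 15.1 CPM (SD, n = 4) in vehicle-treated and 128 ± 16.3 CPM in CIX-treated 4T1 cells (0.81 ± 0.15, adjusted p 0.00273, limma), and Cycs, the soluble carrier cytochrome c, had -0.64 ± 0.18, with both passing at 0.05. Of 32 assembly factors of complexes II to V, 2 fell with CIX in 4T1 cells at 0.001, Cox15 (-0.78), which makes heme a, and Sco1 (-0.95), which delivers copper to complex IV, and none rose. At 0.05, 11 fell and 4 rose, with a median of -0.21. Of 21 genes of mitochondrial transcription and RNA processing, Fastkd1 rose (1.76) and Twnk (-1.08), the mitochondrial helicase, and Fastkd5 (-1.67) fell at 0.001. Of 9 tested regulators of the chain, Gabpb1 (1.42), a subunit of GABP, rose at 0.001, and Ppargc1b (1.24), a PGC-1 coactivator, and Myc (0.62) rose at 0.05, while none fell. Of 17 genes listed for mitochondrial content, the outer membrane and the matrix (content genes), 11 rose and 1 fell at 0.05 with a median of 0.34. Among them were Cs, citrate synthase, at 0.45 and Vdac2, a porin of the outer membrane, at 0.50. Whether their levels follow mitochondrial content in these cells was not tested. In 67NR cells none of the genes on these lists passed at 0.001 with limma, and at 0.05, where 8.51% of all genes rose and 9.26% fell, 1 gene fell on each of the lists of assembly factors and on that of mitochondrial transcription, 2 regulators rose, and 3 content genes rose and 1 fell. Of the 9 tested complex I assembly factors whose symbols do not begin with Nduf, Dmac1 rose at 0.001 (1.55) in 4T1 cells, and 2 rose and 2 fell at 0.05.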

How the data were processed

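Gene expression was measured by RNA-seq in 16 samples, 4 in each of the groups 67NR vehicle, 67NR CIX, 4T1 vehicle and 4T1 CIX. The authors quantified reads with salmon (0.12 in the submitters' processing notes), summed transcripts to genes with tximport on Ensembl GRCm38, and deposited the resulting estimated counts, which are not normalized. The tximport scaling is not given in the sources used here, and 0.0436% of the values above 0 were whole numbers. The estimated counts were rounded here. Depth, 21715700 to 29450629 counts per sample, limits the precision of low members.

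Genes with an approximated TPM below 1 in more than 3 samples of a comparison were left out (for the interaction, only where this held in both lines). Tests were limma-voom with TMM scaling (limma 3.58.1, edgeR 4.0.16, R 4.3.3), fitted over all genes, and calls were made at an adjusted p below 0.001, the study's threshold, and at 0.05. CIX was compared with vehicle over the 8 samples of each line, the untreated lines over the 8 vehicle samples, and the responses by an interaction term over all 16. Alternatives included edgeR's quasi-likelihood test, DESeq2 1.42.0, other scalings and filters, a common fit, sample weights, a length and GC correction, log2(TPM + 1) and log2(TPM + 0.1), and leaving out each sample. Alternatives chosen after seeing the data were to add pseudogene counts to members and to leave out samples 10 and 13 together. Levels per length divide CPM by the mean transcript length. The scripts were tested on simulated data.

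The members, gene lists and tests were chosen with earlier results of these data known. Values are given for the mitochondrial genes, for members at both ends of each role group in each pairwise comparison, for isoforms and for called members, and the remainder as counts. Replicates are the labelled biological replicates.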

Additional observations from a re-analysis of the deposited data

Results flagged for a closer look

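The response to CIX differed between 4T1 and 67NR cells by the interaction term (adjusted p below 0.001, limma) in 11 members, each with the higher response in 4T1 cells. The terms on the log2 scale were 1.89 for Uqcrc2, 1.69 for Ndufc2, 1.62 for Uqcr10, 1.45 for Ndufa5, 1.36 for Ndufaf3, 1.16 for Ndufs4, 1.16 for Atp5d, 1.06 for Ndufaf5, 0.984 for Ndufs5, 0.861 for Ndufv2 and 0.62 for Ndufs7. Among the vehicle-treated 4T1 samples, sample 3 was the highest for 9 of these 11 members and the lowest for Ndufaf3 and Ndufaf5, and leaving it out gave 20 members past the threshold, where 8.26% of all genes passed, beside 7.86% with all samples.

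The scan for samples that stand apart covered 65 of the 106 members and the mitochondrial share. In 244 groups of 4 samples, 20 held a sample that stood apart from the other 3 by Dixon's test, where chance would flag 12.2. Of these, 6 were in vehicle-treated 4T1 sample 3. Its levels were 160.0 CPM for Atp5j (the others 106 to 113), 92.6 for Atp5j2 (39.9 to 46.7), 0.0386 for Cox6a2 (0 in the others), 179 for Ndufa4 (128 to 133), 320.0 for Ndufb9 (261 to 269) and 5.60 for Ndufaf5 (7.04 to 7.08). Another 5 were in vehicle-treated 67NR sample 13, with 308 CPM for Cox6b1 (181 to 201), 202 for Ndufa10 (85.4 to 88.6), 61.3 for Ndufaf1 (10.7 to 14.0), 190.0 for Sdhc (91.8 to 97.7) and 1238 for mt-Co3 (879 to 923). All 5 were high. These counts leave out the members that were not scanned. Among those, Ndufa12 lay at 130 CPM in sample 13 and at 30.7 to 37.1 CPM in the other vehicle-treated 67NR samples. Atp5o lay at 171 CPM in sample 3 and at 119 to 124 CPM in the other vehicle-treated 4T1 samples.

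The remaining samples were flagged once or at most in 2 members. CIX-treated 67NR sample 14 was low for Ndufa10 at 97.6 CPM (126 to 130) and for Uqcrc2 at 169 CPM (206 to 210), and CIX-treated 67NR sample 10 for mt-Atp6 at 330.0 CPM (738 to 777). CIX-treated 4T1 sample 4 was high for Uqcr11 at 90.6 CPM (54.9 to 59.7) and for mt-Nd3 at 17.1 CPM (3.94 to 5.71), and sample 12 of that group for Ndufaf6 at 26.5 CPM (7.42 to 9.09). Vehicle-treated 4T1 sample 11 held 34.5 CPM of Ndufaf1 (9.92 to 13.1), vehicle-treated 67NR sample 1 held 181 CPM of Uqcrc2 (176 in the other 3), and vehicle-treated 67NR sample 5 gave 1.34% of its counts to the mitochondrial genes (1.70 to 1.76%). The part of these samples in the results above is given by the fits that leave them out, and its cause was not tested.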

How the results depend on the processing

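The number of members called at 0.001 was 8 with CIX in 4T1 cells, 0 in 67NR cells and 11 in the interaction. In the same order, DESeq2 called 18, 4 and 19, beside 26.6%, 9.00% and 15.7% of all genes, and sample quality weights 20, 1 and 20, beside 21.6%, 2.14% and 15.2%. The threshold of 0.05 gave 34, 13 and 32, where 21.9%, 8.51% and 15.1% of all genes were higher and 20.8%, 9.26% and 14.2% lower. A common fit of all 16 samples called 19 in 4T1 and 1 in 67NR cells, beside 23.0% and 1.31% of all genes. With log2(TPM + 1) 1 was called in 67NR cells, beside 0.234%. For CIX in 4T1 cells, the fit of the 8 samples of that line called 9.34% of all genes. The paper reports more differentially expressed genes for this comparison than that fit called. It does not state which samples its model held, and the cause of the difference was not tested. Leaving out samples 10 and 13 left 7 in the interaction, beside 4.87% of all genes, where that share was 7.86% with all samples. The 1 member in 67NR cells was each time Cox6a2, also 1 of the 4 of DESeq2 and 1 of the 13 at 0.05, which the filter selected. Leaving out 1 sample gave 1 to 8 in 4T1 cells and 5 to 20 in the interaction, where the median of the nuclear subunits ran from 0.255 to 0.413. That median was -0.0958 in 67NR cells after a length and GC correction, against -0.17, and -0.158 between the untreated lines, against -0.27, where log2(TPM + 1) gave -0.170 and log2(TPM + 0.1) -0.171. As shares of TPM the mitochondrial genes took 2.03% in untreated 67NR, 0.938% in untreated 4T1 and 0.833% in CIX-treated 4T1 cells.

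Changes of sign were found in members that did not pass. With CIX in 4T1 cells the length and GC correction gave 0.272 for mt-Atp6, 0.252 for mt-Co3, 0.315 for mt-Nd6 and 0.0425 for Uqcrfs1, and quality weights gave -0.0294 for mt-Co2 and 0.0275 for Uqcrfs1, which had 0.0529 without a filter. Between the untreated lines Ndufa11 had 0.0462 with log2(TPM + 1), 0.0466 with log2(TPM + 0.1) and 0.198 with the length and GC correction, and -0.182 to 0.0301 when 1 sample was left out. Without samples 10 and 13 mt-Co1 had 0.0906 in 67NR cells. Leaving out 1 sample gave -0.0448 to 0.0222 for Uqcrfs1, -0.0804 to 0.406 for mt-Atp8, -0.127 to 0.319 for mt-Co2 and -0.252 to 0.0157 for mt-Co3 in 4T1 cells, and -0.661 to 0.0505 for mt-Co1 in 67NR cells. Of 1703 values of members summarised only as counts, 120 had another sign, in 26 results of which 0 were called at 0.001. The causes of these changes were not tested. No paired analysis was made because the labels give the groups no shared replicate numbers. Each run of 4 consecutive sample numbers holds 1 sample of each group, but neither labels nor paper say that these runs belong together.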

Other observations

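The members with the lowest log2 fold changes between the untreated lines, Uqcrc2 (chr7:120635176-120659524, plus strand, GRCm38) and Ndufab1 (chr7:122085403-122101886, minus strand), lie near each other on chromosome 7. They were looked at after their values had been seen, so the values are a description. Of the genes within 1 Mb of Uqcrc2, 12 were tested between the untreated lines, with a median log2 fold change of -0.77, and 13 with CIX in 4T1 cells, with a median of -0.21. Around Ndufab1, 10 genes were tested, with medians of -0.44 and 0.02.

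Ndufb4 is a member whose reads can be assigned to pseudogenes. Between the untreated lines it had -0.48 and did not pass, and with the counts of its pseudogenes added it had -0.72 with an adjusted p of 0.000756 (limma).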
